A study of Mus musculus with 8 samples.

Results

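Collagen chain genes were examined in whole-lung RNA from 2 genotypes, wild type (WT) and DDAH1-transgenic (DDAH1TG), after instillation of PBS or of an extract of house dust mite (HDM). They were chosen by name, as the rows of the count table whose Entrez identifier belongs to a mouse protein-coding gene with a symbol made of Col, a type number, a and a chain number. This rule found 44 genes among the 23469 rows, namely 11 chains of fibrils, 6 of basement membrane networks, 6 of beaded filaments, 9 of the fibril-associated collagens with interrupted triple helices (FACIT) and 12 of other kinds. The 4 groups were WT PBS, WT HDM, DDAH1TG PBS and DDAH1TG HDM, all of the strain C57BL/6 according to the labels. The transgene is named only as DDAH1, the enzyme that degrades asymmetric dimethylarginine, and neither the promoter that drives it nor the age of the mice is given in the sources used here. HDM, an allergen extract, was instilled into the trachea at 100 µg per dose, and controls received the same 50 µl of PBS without it. Doses were given 3 times a week over 3 weeks, and lungs were taken 24 h after the final one. For each group a single pool made from 4 mice gave both of its 2 libraries, so every SD below is a spread within one pool, and no p-value covers the variation between mice.

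Collagens are trimeric proteins of the extracellular matrix, wound from chains that carry a glycine in each repeat of their helical part. Types I and III form the fibrils of airway walls, vessels and septa, type IV forms the sheet under epithelium and endothelium, and type VI forms beaded filaments between them. Fibroblasts make most of the fibrillar chains in lung, while endothelial and alveolar epithelial cells also make type IV. Airway remodelling in asthma includes deposition of fibrillar collagen under the epithelium.

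The glycine repeat is visible in the coding exons, and a few are shown because the read length of 50 bases is shorter than these exons and because the repeat differs between the classes described below. All are on GRCm38 with GENCODE M21 exons and are given 5′ to 3′ on the coding strand, with glycine codons in capitals. The exons were Col1a1 exon 8 at chr11:94939904-94939957 and Col1a2 exon 8 at chr6:4515481-4515534, both on the plus strand, and Col3a1 exon 6 at chr1:45325360-45325413 on the plus strand. Those of type VI were Col6a1 exon 9 at chr10:76719623-76719676, Col6a2 exon 6 at chr10:76611948-76612001 and Col6a5 exon 13 at chr9:105918186-105918239, all on the minus strand. For type IV only a stretch inside an exon is shown and not the whole exon. These stretches were chr1:82668979-82669038 in Col4a3 exon 21 on the plus strand and chr1:82518975-82519040 in Col4a4 exon 20 on the minus strand.
Col1a1 exon 8: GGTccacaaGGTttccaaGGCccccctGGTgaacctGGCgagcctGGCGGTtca
Col1a2 exon 8: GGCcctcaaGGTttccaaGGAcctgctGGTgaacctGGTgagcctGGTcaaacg
Col3a1 exon 6: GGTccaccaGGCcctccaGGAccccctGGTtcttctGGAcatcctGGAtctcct
Col6a1 exon 9: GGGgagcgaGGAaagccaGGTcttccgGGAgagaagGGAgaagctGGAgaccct
Col6a2 exon 6: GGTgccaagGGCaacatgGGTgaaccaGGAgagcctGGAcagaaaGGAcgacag
Col6a5 exon 13: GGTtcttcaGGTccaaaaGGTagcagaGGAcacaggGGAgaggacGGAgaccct
Col4a3 exon 21: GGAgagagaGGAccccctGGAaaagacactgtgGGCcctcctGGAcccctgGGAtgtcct
Col4a4 exon 20: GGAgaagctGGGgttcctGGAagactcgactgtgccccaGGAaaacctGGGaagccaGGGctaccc
The exons of types I, III and VI were picked for a length of 54 bases inside the longest unbroken run, so they keep the repeat from end to end. Inside that run Col6a1 had 3 exons of 54 bases and 6 of 63, and Col6a2 had 2 and 6. Col4a3 also had 1 exon of 54 bases inside its longest run. The type IV stretches were picked to hold a break in the repeat, of 2 codons in the 60 bases of Col4a3 and of 4 codons in the 66 bases of Col4a4. The contrast between the printed lines is thus set by this choice. Over whole chains the longest unbroken run of glycine triplets was 338 in Col1a1, 339 in Col1a2 and 344 in Col3a1, but 87 in Col6a1 and Col6a2 and 39 in Col4a3. Despite the shared repeat, 50-base stretches of one chain were found in the transcripts of another chain only for Col6a5 and Col6a6, at 4.09% and 4.77% of their stretches. A median of 50.2% of the 50-base windows in a collagen coding sequence crossed an exon junction, against 27.1% over all genes, so that the counts of collagen genes rest more than others on spliced alignment.

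Total counts lay between 5694928 and 11929374 per library, the lowest being replicate 1 of DDAH1TG HDM mice, and 0.194% to 0.283% of them fell on collagen genes. Values below are counts scaled to a common library size (CPM), adjusted by the trimmed mean of M values over all 8 libraries, and 3 counts correspond to between 0.233 and 0.447 CPM. Ddah1 stood at 47.6 and 34.3 CPM in the libraries labelled WT PBS, 77.2 and 53.7 in DDAH1TG PBS, 43.1 and 44.8 in WT HDM and 34.8 and 33.4 in DDAH1TG HDM mice. Reads of the transgene are counted under Ddah1 only where they align to the mouse gene, and its sequence is not given in the sources used here. Ddah1 had no higher count in the DDAH1TG libraries under HDM, where the log2 fold change was -0.32 ± 0.29 (SE, adjusted p = 0.64, edgeR), and genotype directions under HDM are those of the libraries as labelled. Xist, which is expressed from the inactive X chromosome of females, lay between 11.3 and 20.8 CPM in the PBS libraries and between 2051 and 3028 CPM in the HDM libraries, while the Y-linked Ddx3y lay between 58.8 and 68.9 CPM in the former and between 0.179 and 0.302 CPM in the latter. HDM and sex can therefore not be told apart in any comparison of HDM with PBS libraries. In bulk RNA, fewer cells of a type and less RNA per cell cannot be told apart either. The 45S ribosomal RNA precursor took 14.8% to 21.8% of the counts in the other groups and 8.58% and 9.37% in DDAH1TG HDM mice.

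Most collagen RNA came from few chains. The 10 chains with the highest mean level per kb of coding sequence held between 80.6% and 83.6% of the summed collagen CPM of a library. In WT PBS mice Col4a2 stood at 72.8 ± 6.87 CPM per kb (SD, n = 2) and its partner Col4a1 at 71.3 ± 6.98, and this difference lay within their spread. Both chains form the type IV network found in most basement membranes. Col3a1, the chain of type III fibrils, followed at 56.2 ± 5.45 CPM per kb, then Col4a3 at 52.1 ± 0.353, Col1a2 at 48.7 ± 0.208 and Col1a1 at 35.3 ± 2.44. Col3a1 led in the 2 HDM groups, at 105 ± 2.67 CPM per kb in WT and 89.3 ± 5.87 in DDAH1TG mice. Col23a1, a transmembrane collagen, whose coding sequence is 1.60 kb long, also ranked among the first 10, at 32.3 ± 8.51 CPM per kb in WT PBS mice. At the other end, Col2a1 and Col9a1, chains of cartilage collagens, had 0 counts in all 8 libraries, which allows up to 0.447 CPM in the shallowest library and covers counting error only. Another 11 chains had a mean count under 10, namely Col6a4, Col6a6, Col9a2, Col9a3, Col11a1, Col11a2, Col19a1, Col22a1, Col25a1, Col26a1 and Col28a1.

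**Figure D1:**
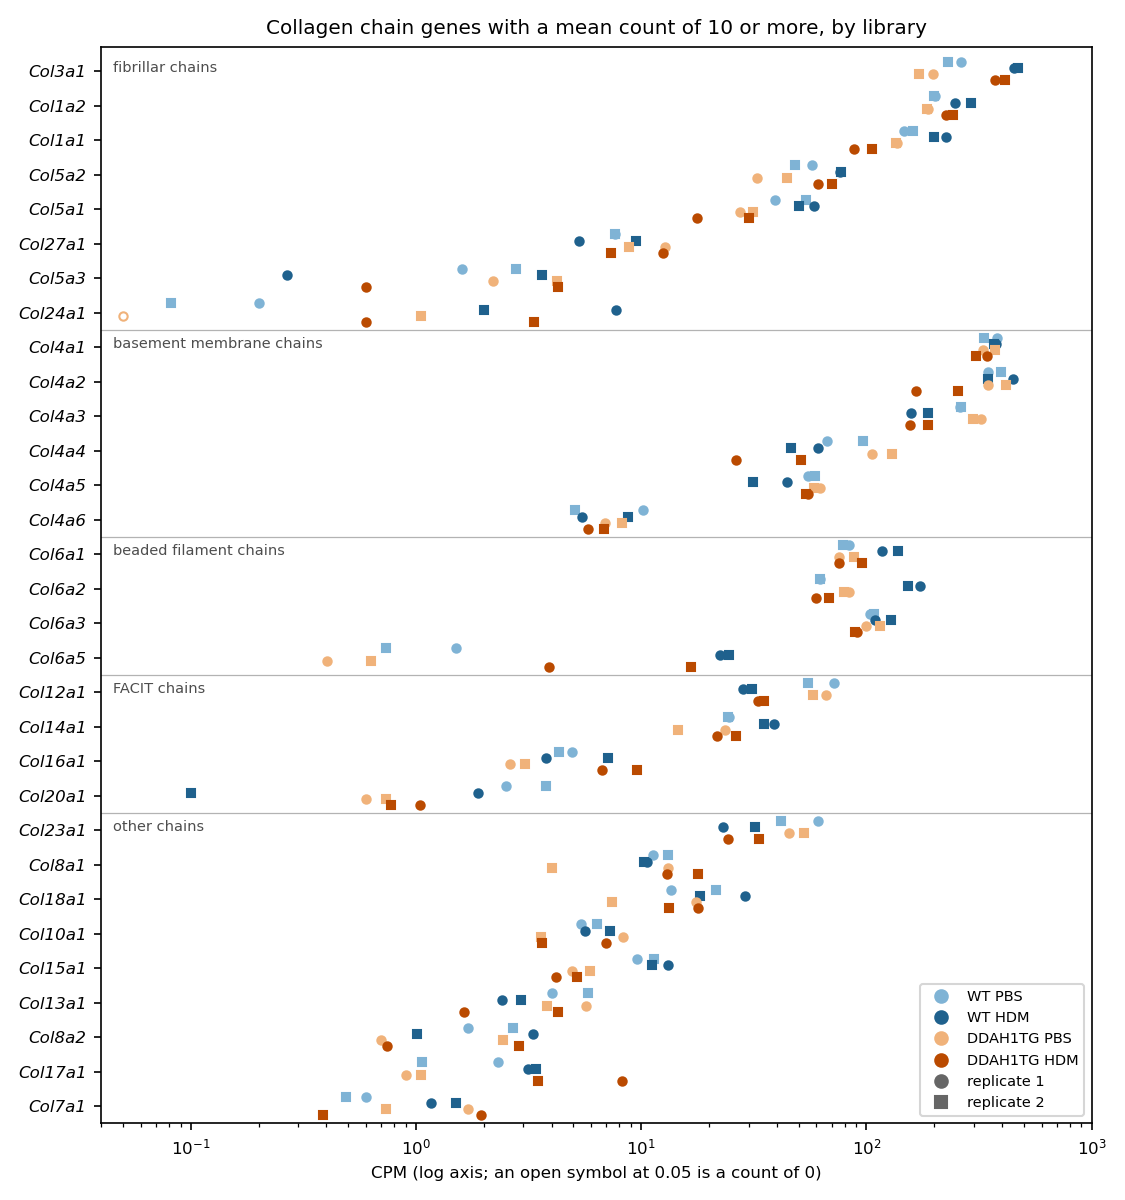
Level of the 31 collagen chain genes with a mean count of 10 or more, in CPM on a log axis, with 1 symbol for each of the 8 libraries, colour for the group and shape for the replicate. Col3a1 and the type IV chains Col4a1 and Col4a2 reach the highest values, and Col6a5 and Col24a1 are spread over more than a factor of 10 between libraries.

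The shares of the classes differed between PBS and HDM libraries. Fibrillar chains made up 25.2% to 31.1% of the summed collagen CPM in the 4 PBS libraries and 39.0% to 40.9% in the 4 HDM libraries. Basement membrane chains made up 48.6% to 55.6% under PBS and 36.6% to 39.8% under HDM. Neither range overlapped between PBS and HDM in either genotype. Beaded filament chains stood at 15.5% and 16.5% in WT HDM mice and at 10.9% to 12.4% in the other 6 libraries. FACIT chains made up 3.32% to 4.52% under PBS and 2.64% to 3.36% under HDM, ranges that overlapped. Shares of one total depend on each other, and with 2 libraries against 2 an exact permutation test cannot give a two-sided p below 0.333, so they are given as descriptions. The sum over all 44 chains was 2702 and 2761 CPM in WT HDM mice, 1908 and 2162 in DDAH1TG HDM mice and between 2221 and 2307 in the PBS libraries.

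**Figure D2:**
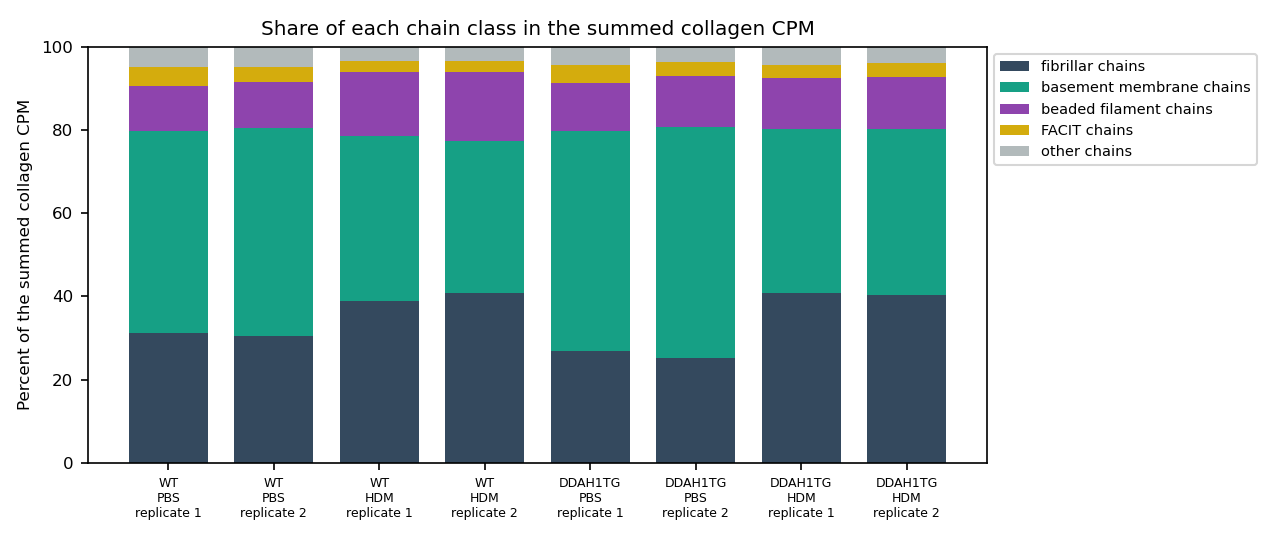
Percent of the summed collagen CPM in each class of chains, as 1 stacked bar for each of the 8 libraries on a scale from 0 to 100. The fibrillar part is 39.0% to 40.9% in the HDM libraries and 25.2% to 31.1% in the PBS libraries, and the beaded filament part is above 15% only in WT HDM mice.

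The study compared the genotypes within each treatment, to ask what DDAH1 overexpression does to expression in the lung, and its 4 groups also allow HDM to be compared with PBS within each genotype. Among the tested chains 10 passed an adjusted p of 0.05 in at least 1 of these comparisons or in the interaction, by edgeR's quasi-likelihood test. In WT mice HDM went with higher Col3a1, Col6a1, Col6a2, Col6a5 and Col24a1 and lower Col4a3 and Col12a1. These are 7 of 32 tested chains, or 21.9%, where 6.74% of all tested genes were called. In DDAH1TG mice HDM went with higher Col3a1 and Col6a5 and lower Col4a2, Col4a3 and Col4a4, which are 5 of 30 tested chains or 16.7%, near the 13.8% of all genes. Under HDM, Col1a1 and Col6a2 were lower in DDAH1TG than in WT mice, 2 of 32 tested chains or 6.25%, against 2.44% of all genes. Under PBS no chain of 28 tested was called between the genotypes, where 0.657% of all genes were called. By edgeR 4 chains (Col3a1, Col4a4, Col5a1 and Col20a1) had an unadjusted p under 0.05, as had 1489 of all 14926 tested genes. DESeq2 called 0 chains and 1.49% of all genes. The interaction, the difference of the genotype effects under HDM and PBS, was called for 1 of 32 tested chains, Col6a2 (3.12%, against 1.76% of all genes). A further 12 chains were too low to be tested in any comparison, and Col6a5, Col24a1, Col6a4, Col7a1 and Col20a1 were tested only in some. A chain that is tested only because 1 group is high had to differ. This held for Col6a5 after HDM and, in WT mice, for Col24a1, both among the called chains. Among chains not called it held, for example, for Col20a1 under PBS, one of the 4 chains above, and for Col7a1 after HDM in WT mice. These counts thus describe the tested chains and not the 44. The 2 HDM comparisons share no library, while each of them shares 2 libraries with each genotype comparison.

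The median log2 fold change of the tested chains was 0.14 for HDM against PBS in WT mice, -0.11 in DDAH1TG mice, -0.07 for the genotypes under PBS and -0.19 under HDM. Over all tested genes the same medians lay between 0.00 and 0.03. For HDM against PBS the called chains lay on both sides of the median in each genotype, so a median does not describe them. Both chains called between the genotypes under HDM lay below the median, and none was called under PBS.

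**Figure D3:**
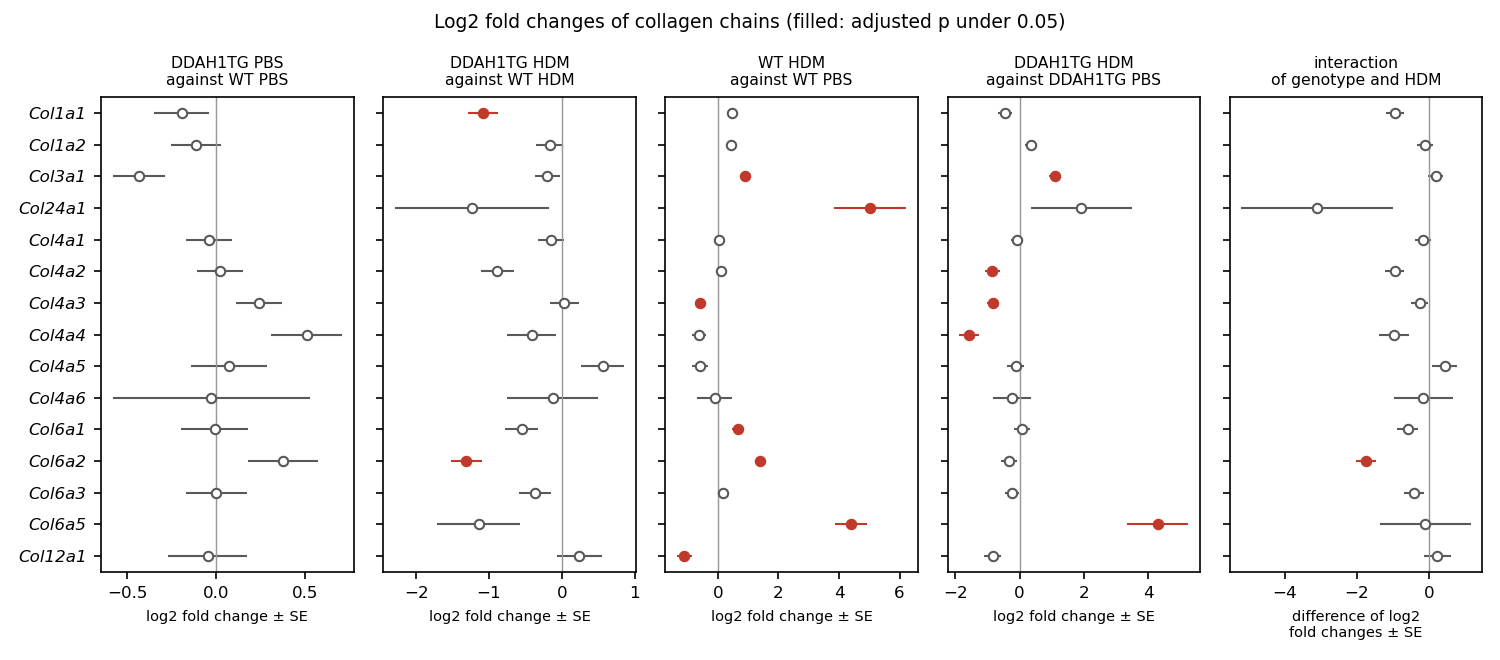
Log2 fold changes with their standard errors of 15 collagen chains in the 4 comparisons and the interaction, with 1 panel for each and a separate horizontal scale in each panel. Filled red points passed an adjusted p of 0.05 by edgeR, and Col6a2 is the only chain past it in the interaction.

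Among the fibrillar chains, Col3a1 stood at 264 and 230 CPM in WT PBS mice and at 454 and 471 CPM after HDM. In DDAH1TG mice it stood at 197 and 172 CPM after PBS and at 374 and 410 CPM after HDM. In both genotypes each HDM library lay above each PBS library. The log2 fold change was 0.90 ± 0.13 (SE, adjusted p = 0.00057) in WT mice, a 1.87-fold higher level, and 1.11 ± 0.18 (adjusted p = 0.0022) in DDAH1TG mice. The difference between these 2 changes was 0.19 ± 0.22 (adjusted p = 0.75), with an interval of -0.24 to 0.62.

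Col1a1 and Col1a2 encode the 2 chains of type I collagen, the main fibril of lung. Col1a2 stood at 201 and 200 CPM in WT PBS, 249 and 292 in WT HDM, 188 and 186 in DDAH1TG PBS and 225 and 242 CPM in DDAH1TG HDM mice. Col1a1 stood at 146 and 162, 225 and 200, 137 and 135, and 88.4 and 106 CPM in the same order of groups. Both HDM groups were thus above their PBS groups for Col1a2, whereas for Col1a1 the DDAH1TG HDM libraries were the lowest of the 8. Under HDM Col1a1 differed between the genotypes by -1.09 ± 0.20 on the log2 scale (adjusted p = 0.018) and Col1a2 by -0.17 ± 0.19 (adjusted p = 0.72). After HDM in WT mice the changes were 0.46 ± 0.15 for Col1a1 (adjusted p = 0.088) and 0.43 ± 0.14 for Col1a2 (adjusted p = 0.096), neither of which passed the threshold. The interaction of Col1a1, -0.94 ± 0.25 (adjusted p = 0.071), did not pass either. With an offset for transcript length, described below, the Col1a1 difference was -0.89 ± 0.20 (adjusted p = 0.062), and without replicate 1 or replicate 2 of WT HDM mice it was -1.02 (adjusted p = 0.35) and -1.16 (adjusted p = 0.22).

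Col24a1, a minor fibrillar chain, was near absent in PBS libraries. It had 2 and 1 counts in WT PBS, 86 and 20 in WT HDM, 0 and 10 in DDAH1TG PBS and 4 and 43 counts in DDAH1TG HDM mice. The 2 libraries of each group other than the first thus differed widely although they came from one pool. The chain entered the WT test only through its HDM libraries, so its call there is not independent of the minimum count for testing. In WT mice the summed counts, scaled to library size, were 37.2 times higher after HDM, with a counting interval of 12.4 to 183 at 95% confidence, while the fitted log2 fold change was 5.03 ± 1.19 (edgeR, adjusted p = 0.021). Without replicate 1 of WT HDM mice this was 3.75 ± 2.09 (adjusted p = 0.28), without replicate 2 of WT PBS mice the adjusted p was 0.12, and with all 8 libraries in 1 fit it was 0.11. The remaining 4 tested fibrillar chains, Col5a1, Col5a2, Col5a3 and Col27a1, passed in no comparison. Among them Col5a2, which joins type I fibrils, stood at 57.3 and 48.0 CPM in WT PBS and 76.7 and 77.3 CPM in WT HDM mice, with a log2 fold change of 0.54 ± 0.21 (adjusted p = 0.15).

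The 6 basement membrane chains lie as 3 pairs of neighbouring genes that are transcribed away from each other. Col4a1 and Col4a2 are on chromosome 8, Col4a3 and Col4a4 on chromosome 1 and Col4a5 and Col4a6 on the X chromosome. The start of Col4a4 differs between annotations. By its RefSeq gene record, which ends at 82587034 on the minus strand, Col4a4 starts beyond the start of Col4a3 at 82586921, so that the genes overlap. By the start used for its promoter in the RefSeq table of GRCm38.p6, 71 bases at chr1:82586850-82586920 lie between them, and they are shown because both chains had lower CPM in the HDM libraries. They hold no GENCODE M21 exon and are given on the minus strand, 5′ to 3′ in the direction of Col4a4.
Col4a4 and Col4a3: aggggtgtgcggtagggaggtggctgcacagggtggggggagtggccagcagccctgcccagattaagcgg
The stretch has a GC content of 69.0% and 2 CpG dinucleotides.

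Col4a3 and Col4a4, which with Col4a5 form the network of alveolar and glomerular basement membranes, stood lower in the HDM libraries. Col4a3 stood at 260 and 262 CPM in WT PBS, 158 and 187 in WT HDM, 324 and 298 in DDAH1TG PBS and 156 and 188 CPM in DDAH1TG HDM mice. Col4a4 stood at 66.8 and 96.8, 60.9 and 46.1, 106 and 130, and 26.4 and 51.5 CPM in the same order. For both chains all HDM libraries lay below all PBS libraries. The log2 fold change of Col4a3 was -0.60 ± 0.15 (adjusted p = 0.023) in WT and -0.83 ± 0.19 (adjusted p = 0.014) in DDAH1TG mice. That of Col4a4 was -0.62 ± 0.23 (adjusted p = 0.15) and -1.57 ± 0.31 (adjusted p = 0.0061). The difference between the genotypes in the change of Col4a4 was -0.97 ± 0.41 (adjusted p = 0.28) and did not pass.

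No chain of the other 2 pairs was called in WT mice, and Col4a2 alone was called in DDAH1TG mice. Col4a1 stood at 382 and 332, 375 and 367, 328 and 372, and 343 and 307 CPM in the same order of groups, with log2 fold changes after HDM of 0.05 ± 0.13 (adjusted p = 0.88) and -0.08 ± 0.18 (adjusted p = 0.83). Col4a2 stood at 348 and 397, 449 and 348, 347 and 415, and 165 and 254 CPM. The DDAH1TG HDM libraries were the lowest 2 of the 8 for Col4a2, and in that genotype its change after HDM was -0.84 ± 0.22 (adjusted p = 0.026). X-linked Col4a5 stood at 54.9 and 58.8, 44.5 and 31.3, 62.4 and 58.3, and 55.0 and 53.7 CPM, and Col4a6 between 5.07 and 10.2 CPM, and neither passed in any comparison. With the offset for transcript length the changes after HDM in DDAH1TG mice were -0.50 ± 0.22 for Col4a2 (adjusted p = 0.18) and -0.40 ± 0.19 for Col4a3 (adjusted p = 0.21), that of Col4a3 in WT mice was -0.48 ± 0.14 (adjusted p = 0.063), and that of Col4a4 still passed. Without replicate 1 or replicate 2 of DDAH1TG PBS mice none of the 5 calls in that genotype passed, with adjusted p between 0.070 and 0.31, while the calls over all genes went from 2079 to 404 and 277, and the Col4a3 call in WT mice was lost in 3 of 4 fits that left out a library, with adjusted p up to 0.10.

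Among the beaded filament chains, Col6a2 was the only one called between the genotypes. Col6a1, Col6a2 and Col6a3 encode the chains of the common type VI trimer, found around fibroblasts and muscle. Col6a2 stood at 62.2 and 62.1 CPM in WT PBS, 174 and 153 in WT HDM, 83.4 and 79.7 in DDAH1TG PBS and 60.0 and 68.1 CPM in DDAH1TG HDM mice. Its level was thus high in WT HDM mice alone. After HDM the log2 fold change was 1.39 ± 0.17 (adjusted p = 0.00014) in WT mice, a 2.62-fold higher level, and -0.32 ± 0.24 (adjusted p = 0.43) in DDAH1TG mice. The genotypes differed by -1.31 ± 0.22 (adjusted p = 0.0091) under HDM and by 0.38 ± 0.20 (adjusted p = 0.56) under PBS, and the interaction was -1.74 ± 0.28 (adjusted p = 0.0024). The interaction passed in each of the 17 alternatives that were fitted for it, with values from -1.83 to -1.53. The direct difference between the genotypes under HDM was -1.24 (adjusted p = 0.32) without replicate 1 and -1.39 (adjusted p = 0.18) without replicate 2 of WT HDM mice, fits in which the calls over all genes went from 370 to 6 and 20. The summed level of skeletal muscle markers had the same order of group means as Col6a2. In the interaction 8 of 10 of these markers were called in the same direction, with a median of -5.92 over the 10. Between the genotypes 8 of the 10 were called under PBS and 0 under HDM, whereas Col6a2 was called under HDM alone. The part of muscle RNA in the Col6a2 values was not tested.

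Col6a1 stood at 83.7 and 79.0, 118 and 139, 75.5 and 87.8, and 75.2 and 95.2 CPM in the same order of groups. Its change after HDM in WT mice was 0.65 ± 0.17 (adjusted p = 0.039), and its interaction was -0.59 ± 0.29 (adjusted p = 0.37). Col6a3 stood at 104 and 108, 109 and 129, 99.2 and 115, and 91.0 and 88.6 CPM, with a change of 0.16 ± 0.17 (adjusted p = 0.67) in WT mice. The difference between the changes of these chains was not tested. The Col6a1 call was lost in 3 of 4 fits that left out a library, with adjusted p up to 0.24, and had an adjusted p of 0.092 with all 8 libraries in 1 fit.

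Col6a5, a long chain that can take the place of Col6a3 in the trimer, had the largest change of any chain called in both genotypes. It had 15 and 9 counts in WT PBS and 250 and 245 in WT HDM mice, against 4 and 6 in DDAH1TG PBS and 26 and 214 in DDAH1TG HDM mice. Col6a5 entered both HDM tests only through its HDM libraries, so its calls below are not independent of the minimum count for testing. Each HDM library was above each PBS library, but the 2 libraries of the last group stood at 3.88 and 16.6 CPM although they shared their pool. Summed counts, scaled to library size, were 21.7 times higher after HDM in WT mice (95% counting interval 14.4 to 34.2) and 23.8 times higher in DDAH1TG mice (12.7 to 50.3). The log2 fold changes were 4.39 ± 0.53 (adjusted p = 0.00013) and 4.30 ± 0.95 (adjusted p = 0.011), and the interaction was -0.09 ± 1.25 (adjusted p = 0.99), with an interval of -2.55 to 2.37 that leaves large differences in either direction possible. Without replicate 2 of DDAH1TG HDM mice the change in that genotype was 2.90 ± 1.56 (adjusted p = 0.22), while that in WT mice passed in all 14 alternatives.

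Among the FACIT chains, Col12a1, which binds to the surface of type I fibrils, was lower after HDM. It stood at 72.0 and 55.1, 28.3 and 31.1, 66.5 and 57.7, and 33.1 and 35.1 CPM in the same order of groups, so that all HDM libraries lay below all PBS libraries. The log2 fold change was -1.10 ± 0.25 (adjusted p = 0.015) in WT mice and -0.84 ± 0.28 (adjusted p = 0.067) in DDAH1TG mice. Without replicate 1 of WT PBS mice the former was -0.89 ± 0.37 (adjusted p = 0.18). The other 3 FACIT chains that were tested, Col14a1, Col16a1 and Col20a1, passed in no comparison, and the remaining 5 were too low to test.

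None of the 12 chains of other kinds was called, and 9 of them were tested in at least 1 comparison. The most abundant of them, Col23a1, stood at 61.1 and 41.9 CPM in WT PBS, 23.1 and 32.0 in WT HDM, 45.4 and 52.7 in DDAH1TG PBS and 24.2 and 33.5 CPM in DDAH1TG HDM mice. Its HDM libraries lay below its PBS libraries in both genotypes, with log2 fold changes of -0.91 ± 0.29 (adjusted p = 0.080) and -0.74 ± 0.31 (adjusted p = 0.14), which did not pass.

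Ratios between chains within a library do not depend on library size. Per kb of coding sequence, Col1a1 stood at 0.688 and 0.763 of Col1a2 in WT PBS, 0.853 and 0.646 in WT HDM, 0.687 and 0.686 in DDAH1TG PBS and 0.371 and 0.412 in DDAH1TG HDM mice. The last pair lay below the other 6 libraries. The ratio of Col3a1 to Col1a1 was 4.20 and 3.85 in that group and between 1.26 and 2.34 in the others, whereas the ratio of Col3a1 to Col1a2 was 1.56 and 1.59 there and 1.71 and 1.51 in WT HDM mice. In type VI, Col6a1 stood at 1.36 and 1.28 of Col6a2 in WT PBS mice and at 0.683 and 0.914 in WT HDM mice. In DDAH1TG mice it stood at 0.913 and 1.11 after PBS and at 1.265 and 1.411 after HDM. Col6a3 stood at 0.644 and 0.673 of Col6a2 in WT PBS and 0.243 and 0.325 in WT HDM mice. It stood at 0.4595 and 0.5566 in DDAH1TG PBS and 0.5861 and 0.5028 in DDAH1TG HDM mice. In type IV, Col4a1 stood at 2.12 and 1.24 of Col4a2 in DDAH1TG HDM mice and between 0.854 and 1.12 elsewhere, so that the 2 libraries of that pool differed more from each other than the other groups did. The ratio of Col4a3 to Col4a4 was 5.96 and 3.69 in that group and between 2.32 and 4.10 elsewhere, ranges that overlapped. The 7 ratios computed have too few libraries for a test below 0.333.

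**Figure D4:**
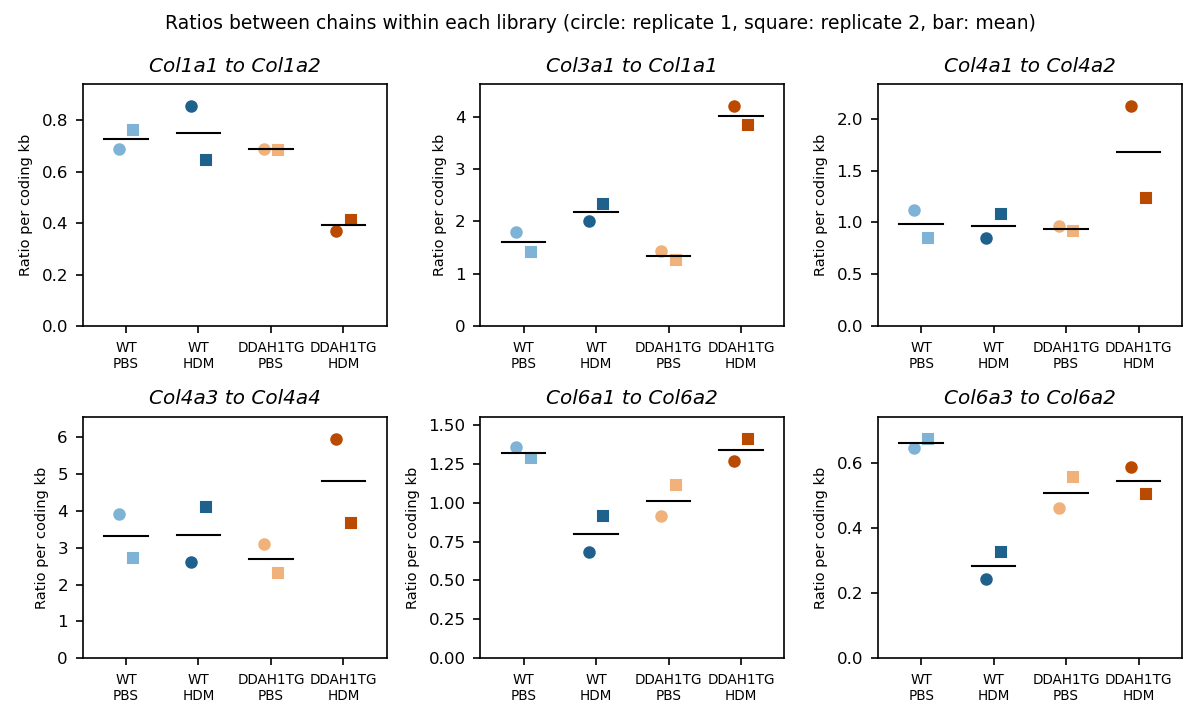
Ratios between collagen chains within each library, per kb of coding sequence, with the 2 libraries of a group as symbols and their mean as a bar, on axes that start at 0. The ratio of Col1a1 to Col1a2 is 0.371 and 0.412 in DDAH1TG HDM mice and at least 0.646 in the other libraries.

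Transcript length moved with some of these comparisons. Collagen transcripts had a median length of 5611 bases against 2953 over the tested genes, from 2624 bases in Col25a1 to 11511 in Col12a1. Across all tested genes with a length, Spearman's rho between transcript length and log2 fold change was -0.33 for HDM in DDAH1TG mice, -0.28 for the genotypes under HDM, -0.13 for HDM in WT mice and 0.01 for the genotypes under PBS. Genes share their libraries, so these are descriptions. The 3 negative values concern comparisons with HDM libraries, and the 2 strongest involve DDAH1TG HDM mice. Genes of over 4000 bases had a median log2 fold change of -0.26 for HDM in DDAH1TG mice and -0.18 for the genotypes under HDM. Within the collagen chains rho was -0.20, 0.02, -0.06 and 0.34 in the order given above, over 28 to 32 chains. With an offset for transcript length, the median of the tested chains for HDM in DDAH1TG mice was 0.24 rather than -0.11, and that for the genotypes under HDM was 0.01 rather than -0.19. The direction of these medians therefore depends on the treatment of length, while none of the 15 calls changed direction.

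**Figure D5:**
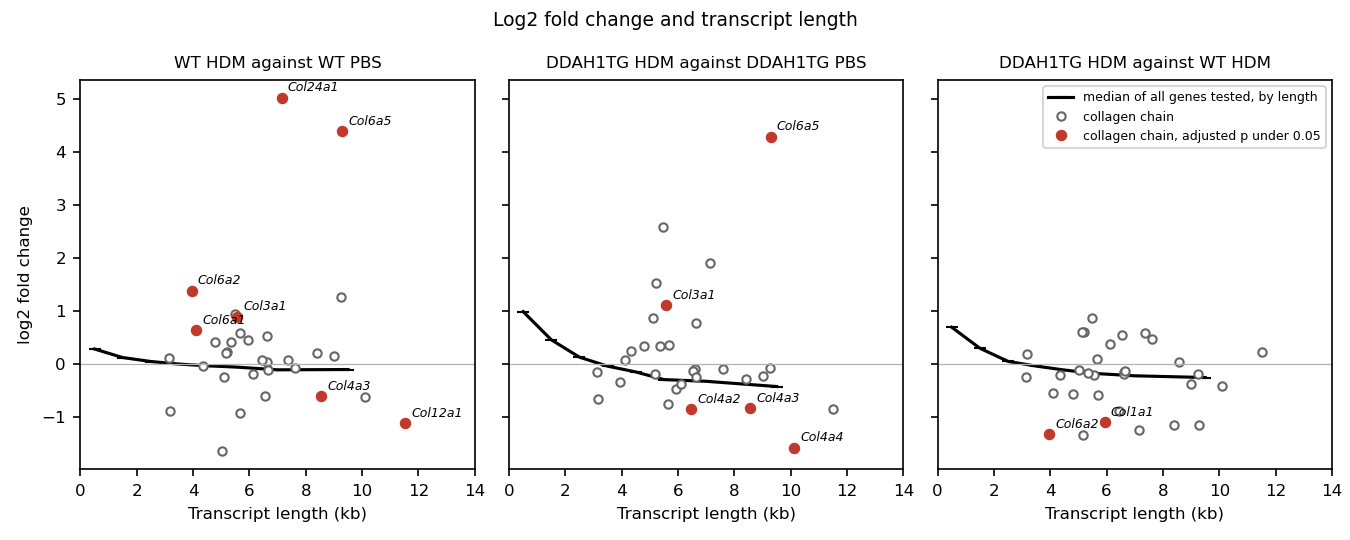
Log2 fold change against transcript length in kb for the tested collagen chains (circles, red where the adjusted p is under 0.05) and the median of all tested genes in bins of length (line), in 3 comparisons. The line falls from 1.00 in the shortest genes to -0.42 in the longest for HDM in DDAH1TG mice, and Col4a2 and Col4a3 lie below it by less than they lie below 0.

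Genes that modify, secrete, cleave, link or bind collagen were taken from 6 lists of 58 genes in all, of which 55 or 56 were tested. After HDM in WT mice 2 of 56 were called higher and 5 lower, where 6.74% of all tested genes were called. The 5 with the smallest adjusted p were Pcolce2, an enhancer of propeptide cleavage (-1.84 ± 0.29, adjusted p = 0.0012), Prelp (-0.72 ± 0.13, adjusted p = 0.0044) and Ogn (-0.63 ± 0.12, adjusted p = 0.0063), both small proteoglycans, Plod2, a lysyl hydroxylase (-1.14 ± 0.24, adjusted p = 0.0097), and Itga1, a subunit of a collagen receptor (-0.68 ± 0.14, adjusted p = 0.010). The 2 that were higher were Colgalt1, which glycosylates collagen, and Tgm2, which cross-links it. After HDM in DDAH1TG mice 2 of 55 were called higher and 7 lower, near the share of 13.8% over all tested genes. Among these Prelp fell by 1.26 ± 0.19 on the log2 scale (adjusted p = 0.0012), and Ppib, a prolyl isomerase of the folding complex, rose by 1.51 ± 0.25 (adjusted p = 0.0024). Ogn fell by 0.94 ± 0.17 (adjusted p = 0.0038), Itga1 fell by 0.93 ± 0.20 (adjusted p = 0.0084), and Sec13, a coat protein of secretory vesicles, rose by 1.23 ± 0.32 (adjusted p = 0.026). With the length offset 5 of the 9 did not pass there, namely Ppib (0.72, adjusted p = 0.089), Itga1 (-0.43, adjusted p = 0.19), Sec13 (0.75, adjusted p = 0.17), Ddr2 (-0.40, adjusted p = 0.30) and Plod2 (-0.86, adjusted p = 0.069).

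Between the genotypes under HDM, Ppib (1.04 ± 0.24, adjusted p = 0.041) and Pcolce2 (1.72 ± 0.34, adjusted p = 0.022) were higher and Tgm2 (-0.84 ± 0.18, adjusted p = 0.035) was lower in DDAH1TG mice, 3 of 56 tested, where 2.44% of all genes were called. With the length offset Pcolce2 still passed (adjusted p = 0.033), while Ppib was at 0.44 (adjusted p = 0.39) and Tgm2 at -0.78 (adjusted p = 0.060). In the interaction 1 of 56 tested genes was called, near the share of 1.76% over all genes. This was Tgm2, at -0.89 ± 0.22 (adjusted p = 0.049), and at -0.81 (adjusted p = 0.084) with the length offset. Under PBS none of 56 was called between the genotypes by edgeR, where 0.657% of all genes were called. The median log2 fold change over the genes of all 6 lists lay between -0.16 and 0.09 in the 5 comparisons. For HDM in DDAH1TG mice the small proteoglycans had a median of -0.68 and the propeptide cleavage list one of -0.67. Within a list the calls were 2 or fewer, apart from 4 of 8 small proteoglycans (Prelp, Ogn, Bgn and Dcn) that were lower after HDM in DDAH1TG mice, where 5.35% of all tested genes were called lower.

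Fibroblast markers and fibrillar chains had opposite orders between PBS and HDM libraries. The summed level of 8 fibroblast markers was 858 and 865 CPM in WT PBS, 404 and 399 in WT HDM, 951 and 1031 in DDAH1TG PBS and 465 and 604 CPM in DDAH1TG HDM mice. After HDM 0 of 8 were called higher and 2 of 8 lower in WT mice, and 3 of 8 lower in DDAH1TG mice. With the length offset Pdgfra did not pass in DDAH1TG mice (-0.58, adjusted p = 0.097, edgeR), while the other calls of this list did. Over all tested genes 2.30% were called lower after HDM in WT and 5.35% in DDAH1TG mice, shares that also apply to the lists below. Inmt held a large part of the sum, at a mean of 441 CPM in WT PBS and 125 in WT HDM mice, and all 8 markers were lower in that comparison. The summed level was thus lower under HDM, where the fibrillar chains summed to 1076 and 1105 CPM against 718 and 705 CPM under PBS in WT mice. The summed level of 6 myofibroblast and smooth muscle markers was 271 to 278 CPM in WT HDM mice, 211 to 212 in WT PBS mice and 142 to 164 CPM in DDAH1TG mice. Markers of endothelium, which makes type IV chains, summed to 1796 to 1812 CPM in WT PBS and 1306 to 1330 in WT HDM mice. In DDAH1TG mice they summed to 2172 to 2198 CPM under PBS and 886 to 1106 CPM under HDM. After HDM 2 of 6 were called lower in WT and 4 of 6 in DDAH1TG mice. Alveolar type 1 cell markers, which mark another source of type IV chains, summed to 1696 to 1779 and 1194 to 1231 CPM in WT and to 2172 to 2308 and 1585 to 1653 CPM in DDAH1TG mice, with 2 of 6 called lower in each genotype. With the length offset these 2, Rtkn2 (-0.72, adjusted p = 0.060, edgeR) and Clic5 (-0.45, adjusted p = 0.087), did not pass in DDAH1TG mice. Both still passed in WT mice, as did the endothelial calls in both genotypes. The fall of Col4a3 and Col4a4 went with these 2 lists, and their part in it was not tested. Other type IV chains differed, with log2 fold changes after HDM of 0.05 in WT and -0.08 in DDAH1TG mice for Col4a1. Those of Col4a2 were 0.09 in WT and -0.84 in DDAH1TG mice.

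Markers of other tissues also differed between groups. The 10 skeletal muscle markers summed to 42.9 and 46.7 CPM in WT PBS mice and to between 172 and 308 CPM in the other groups, with 297 and 308 CPM in WT HDM, 272 and 308 in DDAH1TG PBS and 172 and 201 CPM in DDAH1TG HDM mice. By edgeR 8 of 10 muscle markers were called higher in DDAH1TG PBS than in WT PBS mice, against 0.281% of all genes. After HDM in WT mice 9 of 10 were called higher, against 4.44% of all genes. In the interaction 8 of 10 were called lower, against 0.706%, and between the genotypes under HDM 0 of 10 were called. The part of muscle RNA in the type VI values was not tested. The 6 pericyte markers summed to 350 to 396 CPM except in DDAH1TG HDM mice (215 and 253 CPM), where Col1a1 and Col4a2 were also lowest. The 8 chondrocyte markers summed to 0.537 to 5.41 CPM, with Snorc and Ucma at 0 in all libraries, beside the 0 counts of Col2a1 and Col9a1. Markers of alveolar type 2 cells summed to between 11470 and 21360 CPM and those of mesothelium to between 42.4 and 79.9 CPM, so that defining markers of lung were present. Adipocyte markers lay between 18.6 and 78.9 CPM and thymocyte markers between 11.6 and 68.5 CPM, the latter highest in WT PBS mice.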

How the data were processed

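Lung RNA of 4 mice per group was pooled by the study's authors, amplified, and sequenced in duplicate for 50 cycles (single reads). Per the labels and the paper's methods they aligned reads to mm10 (GRCm38) with TopHat and took the reads falling in coding sequence, per gene, by ShortRead and their own R code. The deposited values are these raw counts, without normalization. Versions other than CASAVA 1.8, the annotation and the strand setting are not given in the sources used here, so reads of overlapping genes cannot be told apart. Among called members, another gene overlapped 43 coding bases of Col4a2 and 66 of Col3a1.

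Gene names came from RefSeq (GRCm38.p6) for 23372 of 23469 identifiers, and transcript and coding lengths from GENCODE M21 for all 44 members. Each comparison used edgeR 4.0.16 (R 4.3.3): TMM normalization, filterByExpr with a count minimum of 10, the quasi-likelihood test on its own 4 libraries (all 8 for the interaction), and Benjamini-Hochberg adjustment over all tested genes. The SE was the log2 fold change divided by the square root of F, and intervals are 1.96 SE on each side. Counting intervals are exact binomial ones and, as no molecular identifiers were used, cover counting error only. Named were the called members, the 10 highest per kb of coding length, the chains of types I, III and VI and all type IV chains, members with a mean count under 10 only as a list, and at most 5 called genes of the pathway lists per comparison; Col5a2, Colgalt1, Bgn, Dcn, Ddr2, the marker genes named and the chains with an unadjusted p under 0.05 were added after their values were seen. The members, lists and tests were chosen with earlier results of these data known. Alternatives were DESeq2 1.42.0, RLE size factors, a block for the replicate number, testing without the count filter, loess offsets (span 0.5) for transcript length, coding length or GC content, library sizes without 45S and haemoglobin genes, all 8 libraries in 1 fit, a log2 fold change of at least 1, and leaving out each library. The script was tested on simulated data.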

Additional observations from a re-analysis of the deposited data

Results flagged for a closer look

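The genotype effect on Col6a2 differed between the treatments. DDAH1TG libraries were lower than WT libraries under HDM (log2 fold change -1.31) and not under PBS (0.38), and the difference, tested as the interaction in edgeR over all 8 libraries, was -1.74 (adjusted p = 0.0024). The 2 libraries of WT HDM mice were both above the other 6. HDM and PBS libraries also differ in sex, so that HDM and sex cannot be told apart here. In the same interaction 8 of 10 skeletal muscle markers were called in the same direction (median -5.92). Between the genotypes 8 of these 10 were called under PBS and 0 under HDM, whereas Col6a2 was called under HDM alone. The part of muscle RNA in the Col6a2 result was not tested.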

How the results depend on the processing

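None of the 15 calls changed direction in 213 fits under the alternatives. In 36 of these fits a call no longer passed, 24 of them fits that left out a library. In all of their fits 4 of the 15 calls passed, namely Col3a1, Col6a2 and Col6a5 after HDM in WT mice and the Col6a2 interaction. The condition of a log2 fold change of at least 1 is not among these fits, and Col3a1 in WT mice, at 0.90, does not meet it. Leaving out a library left 1 library in a group, which is assumed to vary like the others. Col6a5 was tested after HDM only because its HDM libraries were high, so its passing is not independent of the count filter. For HDM in WT mice, the number of called chains was 7, between 4 and 9 without a library and 4 when the log2 fold change also had to reach 1. The median of the chains was 0.14 and lay between 0.13 and 0.26 without a library, at 0.094 without the count filter, at 0.23 and 0.21 with the offsets for transcript and coding length, and at 0.24 with the length offset and the replicate block. For HDM in DDAH1TG mice 5 chains were called, between 0 and 5 without a library and 3 when it also had to reach 1 in size. The median, -0.11, lay between -0.10 and -0.06 without a library and was 0.24 and 0.26 with the 2 length offsets and 0.22 with the offset and the block. For the genotypes under HDM, 2 chains were called, but 4 with DESeq2, without the filter and with all 8 libraries in 1 fit (Col4a2 and Col5a1 besides Col1a1 and Col6a2), 1 with either length offset, and between 0 and 5 without a library. The median, -0.19, lay between -0.29 and -0.16 without a library and was 0.013 and 0.066 with the 2 length offsets and -0.009 with the offset and the block. For the interaction 1 chain was called, but 3 with DESeq2 and without the filter, 2 with the replicate block, and between 1 and 4 without a library. Its median, -0.12, was 0.11 and 0.15 with the 2 length offsets and 0.12 with the offset and the block, and lay between -0.213 and 0.006 without a library. Under PBS the count was 0 in all alternatives, and the median, -0.07, lay between -0.22 and -0.10 without a library. Apart from length, where the offset itself removes a trend seen over all genes, the cause of these changes was not tested.

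The replicate numbers did not pair the libraries, since correlations of the deviations of same-numbered libraries lay between -0.02 and 0.03. The replicate block without an offset gave 7, 5, 3 and 0 called chains for HDM in WT, HDM in DDAH1TG mice, and the genotypes under HDM and PBS. A value of 3 counts corresponds to 0.233 to 0.447 CPM, and 12 chains were too low to be tested in any comparison. One of them, Col6a6, was among the 9 chains called after HDM in WT mice without WT HDM replicate 2, with 48 counts in WT HDM replicate 1 and 8 or fewer in the other libraries.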
